A study of Mus musculus with 12 samples.

Results

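The connexin genes Gja1, Gja3, Gja4, Gja5, Gjb2, Gjc1 and Gjd3 encode the subunits of gap junctions. They were chosen by their symbols, with earlier results of these data known. All 7 were found among the 20368 genes of the expression table, which holds 20 connexin genes in all. RNA-seq had been made from whole mouse hearts of the CD1 strain at embryonic day (E) 11.5 and 12.5. Mutant hearts were Mesp1Cre;Hira-/fl and control hearts were Mesp1Cre;Hira+/fl, with 3 libraries for each genotype at each stage, 12 in all. Both genotypes carried the Mesp1Cre driver, a Cre that recombines in the early mesoderm from which most of the heart is built. In the controls this leaves 1 intact Hira allele, encoding a chaperone of histone H3.3, in cells where Cre acted, and in the mutants none. The mutants also carried the null allele in all other cells.

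Connexins assemble as hexamers in the plasma membrane, and the hexamers of neighbouring cells dock to form channels through which ions and small molecules pass directly from cell to cell. In heart muscle these channels carry the electrical impulse, and the connexin composition of a region sets how fast it conducts. Gja1 (Cx43) is the main connexin of working ventricular muscle. Gja5 (Cx40) is known from the atria, the trabeculae and the fast ventricular conduction system, and also from arterial endothelium. Gjc1 (Cx45) is the connexin of the earliest heart tube and of the nodes, and Gjd3 (Cx30.2) is known from the mouse atrioventricular node. Gja4 (Cx37) is an endothelial connexin, Gja3 (Cx46) is best known from lens fibre cells, and Gjb2 (Cx26) from the epithelia of skin, liver and inner ear.

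The reads assigned to genes summed to between 11994148 and 17483982 in a library, so that 1 read corresponded to 0.0564 to 0.0861 CPM. CPM is the number of reads of a gene scaled to a fixed library size, and is used below for its level across libraries, after scaling of the library sizes by edgeR's TMM method, and RPKM, which is also divided by the length of the gene, for comparing genes with each other. The heart muscle genes Myl2 and Myl7 stood at 3201 to 4992 and 894 to 2437 CPM in the 12 libraries. Reads over the whole Hira gene gave 60.7 to 86.5 CPM in controls and 57.0 to 79.7 CPM in mutants, ranges that overlapped at both stages. The counts are per gene, so they did not separate the floxed exon and do not check the deletion. The authors reported recombination by PCR, fewer Hira exon reads in the mutant RNA-seq and reduced HIRA protein in mutant hearts. Reads of Y-linked genes marked 3 of 3 E11.5 controls as male but 1 of 3 hearts as male in each of the other groups, so sex differed with genotype at E11.5 and with stage in the controls. The labels do not say whether the hearts came from separate litters, and p-values therefore measure the spread between these libraries, which may be partly technical.

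Gja1 was the most abundant connexin of these hearts. Its mean over the 12 libraries was 102 RPKM, rank 830 of all genes. Gja5 followed at 26.3, Gjc1 at 22.4 and Gja4 at 21.7 RPKM. The libraries of these last 3 genes overlapped, so their order did not exceed the spread. Gjd3 at 1.28, Gja3 at 0.879 and Gjb2 at 0.717 RPKM were much lower, and rested on 198, 236 and 317 reads over all libraries. The libraries of these genes overlapped as well. In the plot of levels by gene, Gja1 lies apart from every other connexin and Gjc1 has the narrowest spread.

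**Figure D1:**
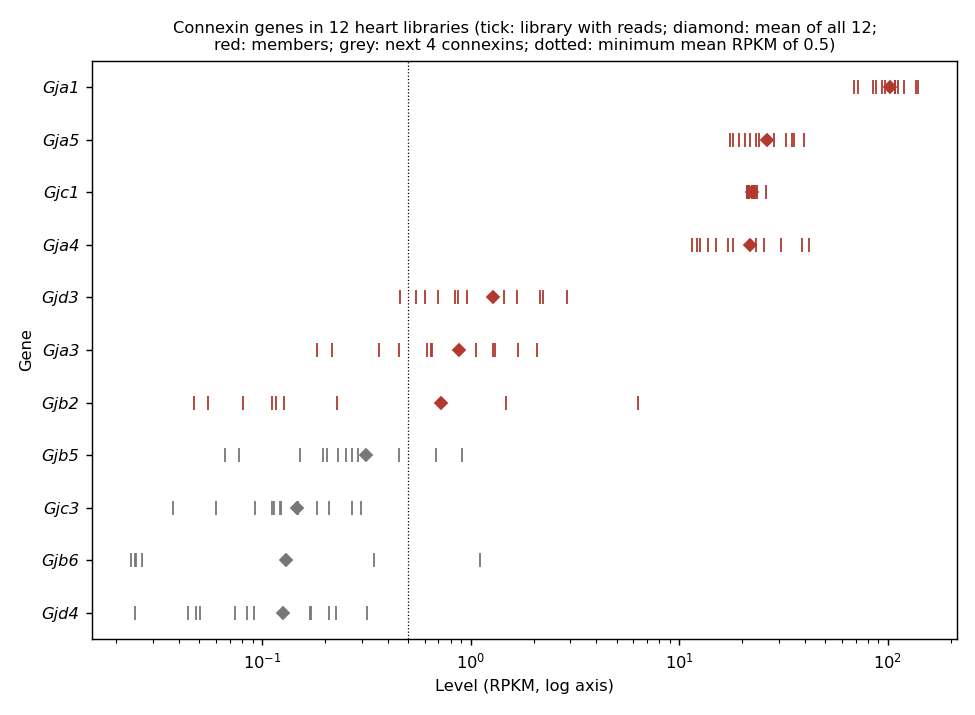
Level of the 7 connexins and of the 4 other connexin genes with the next highest means, in RPKM on a log axis; each tick is 1 library with reads, each diamond the mean of all 12 libraries, red the 7 genes described here, grey the other 4, and the dotted line the minimum mean of 0.5 RPKM for a test. Gja1, with a mean of 102 RPKM, lies above the group of Gja5, Gjc1 and Gja4, and the grey genes all have means under the dotted line.

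None of the 13 other connexin genes reached the minimum for a test in any comparison, a mean of 0.5 RPKM over the libraries compared. The highest of them was Gjb5 at 0.315 RPKM, with 95 reads in all. Gjc3 had 96 reads, Gjd4 60, Gjb6 59, Gje1 14 and Gja10 5. The X-linked genes Gja6 and Gjb1, which were outside the comparisons, had 25 and 8 reads. Gjd2, a neuronal connexin, had 0 reads in the 12 libraries, which allows up to 3 reads in all.

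All 7 genes have their coding sequence in 1 exon of the principal transcript in the GENCODE annotation of GRCm38. Gja1 lies on chromosome 10 (56377330 to 56402513, + strand) and its coding sequence has 382 codons. Gja4 (chromosome 4, 127311421 to 127314039, - strand) has 333 codons, Gja5 (chromosome 3, 96904693 to 97077416, + strand) 358, and Gjc1 (chromosome 11, 102799579 to 102819700, - strand) 396. Gjd3 (chromosome 11, 98982180 to 98983016, - strand) has 278 codons and a single exon. Gja3 and Gjb2 are neighbours on chromosome 14 (57034460 to 57058100 and 57098600 to 57104702, both - strand), with 417 and 226 codons, and 40500 bases apart. Gja5 overlaps Gpr89 and other genes on the opposite strand. Whether the counting used the strand is not given in the sources used here, so reads of Gja5 and of these genes might not be told apart.

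The 250 bases before the RefSeq start site (GRCm38.p6) were matched for 5 of the 7 genes. Those of Gja1, Gja4 and Gja3 are shown because these genes differed between the genotypes without overlap at both stages, and that of Gja5 because it did not. They lie at chr10:56377050-56377299 (+ strand) for Gja1, chr14:57058101-57058280 (- strand) for Gja3, chr4:127314040-127314289 (- strand) for Gja4 and chr3:97032152-97032401 (+ strand) for Gja5, each written 5′ to 3′ on the strand of its gene. The 180 bases given for Gja3 leave out those that GENCODE annotates as exon. Capitals mark matches, on either strand, to the letters GGGCGG (the core bound by SP factors) or TATAAA (the TATA box).
Gja1: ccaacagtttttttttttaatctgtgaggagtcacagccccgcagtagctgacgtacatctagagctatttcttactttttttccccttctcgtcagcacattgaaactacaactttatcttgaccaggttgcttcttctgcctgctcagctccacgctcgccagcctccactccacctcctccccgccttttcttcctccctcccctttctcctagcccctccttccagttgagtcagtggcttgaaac
Gja3: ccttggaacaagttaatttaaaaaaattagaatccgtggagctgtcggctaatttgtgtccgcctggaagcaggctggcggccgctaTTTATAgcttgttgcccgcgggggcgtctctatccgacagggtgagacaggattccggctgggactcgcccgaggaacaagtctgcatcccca
Gja4: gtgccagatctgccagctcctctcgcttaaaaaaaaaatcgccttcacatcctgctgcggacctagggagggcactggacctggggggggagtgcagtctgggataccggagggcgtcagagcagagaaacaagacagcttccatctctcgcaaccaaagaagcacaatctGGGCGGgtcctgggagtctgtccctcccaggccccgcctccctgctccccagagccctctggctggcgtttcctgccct
Gja5: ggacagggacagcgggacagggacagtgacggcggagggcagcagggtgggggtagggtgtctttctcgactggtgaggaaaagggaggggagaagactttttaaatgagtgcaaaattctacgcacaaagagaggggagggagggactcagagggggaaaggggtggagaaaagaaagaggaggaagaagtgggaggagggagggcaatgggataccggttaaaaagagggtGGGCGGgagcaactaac
The letters GGGCGG were found once before Gja4, at position -79 from its start site, and once before Gja5, at -17. TATAAA was found once before Gja3, at -163, on the opposite strand, and neither motif was found before Gja1. Of 32817 promoter windows of this length, 32.7% held GGGCGG and 12.4% TATAAA. Letters of the GAGA element (GAGAGAGA, in 3.25% of windows), of the NKX2-5 site (TNAAGTG, 10.1%) and of the T-box site (AGGTGTGA, 1.12%) were in none of the 5 windows searched, Gjb2 included. No match to one motif overlapped a match to another. The share of G and C was 50% before Gja1, 62.8% before Gja3, 61.2% before Gja4 and 56.4% before Gja5, and the median of all windows was 52.4%.

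Mutant and control hearts were compared at each stage with edgeR's quasi-likelihood test, and p-values were adjusted over all genes tested by the Benjamini-Hochberg method. A gene was called changed when its adjusted p reached 0.05 or less and its fold at least 1.5. At E11.5, 0 of the 6 connexins tested were called, where 14 of 12197 genes were called in all (0.115%), and 3 had an unadjusted p under 0.05, against 10.2% of all genes. In the same 3 genes, Gja1, Gja3 and Gja4, the mutant and control libraries did not overlap, as was the case for 16.4% of all genes. They were also the connexins without overlap in the same direction at both stages, against 6.53% of genes. Gja3 reached the minimum for a test at E11.5 through its controls (mean 0.998 RPKM, against 0.254 in mutants). These counts thus rest in part on a gene let in by its control level. At E12.5, 3 of 7 were called, Gja4 and Gjd3 higher and Gja3 lower in mutants, where 362 of 12257 genes were called (2.95%, or 1.59% higher and 1.36% lower). The libraries of 4 of these 7, Gja1 being the fourth, did not overlap, against 26.4% of all genes. The median log2 fold change of the 7 at E12.5 was 0.49, that of all genes tested 0.00. The 7 values ran from -1.55 (Gja3) to 4.77 (Gjb2). Gjb2 reached the minimum for a test only through 1 mutant library, so this median rests in part on a gene let in by its mutant level. When both stages were fitted together with stage as a term, the calls were again for Gja3, Gja4 and Gjd3, out of 395 of 12270 genes (3.22%). DESeq2 called 1 connexin at E11.5, Gja4, and the same 3 at E12.5. In 1 fit over all 12 libraries, Gja3 and Gja4 were called at E11.5 (adjusted p = 0.0301 and 0.00878, edgeR) and none of the 7 at E12.5, where the adjusted p of Gja3, Gja4 and Gjd3 was 0.0510, 0.0943 and 0.0868.

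**Figure D2:**
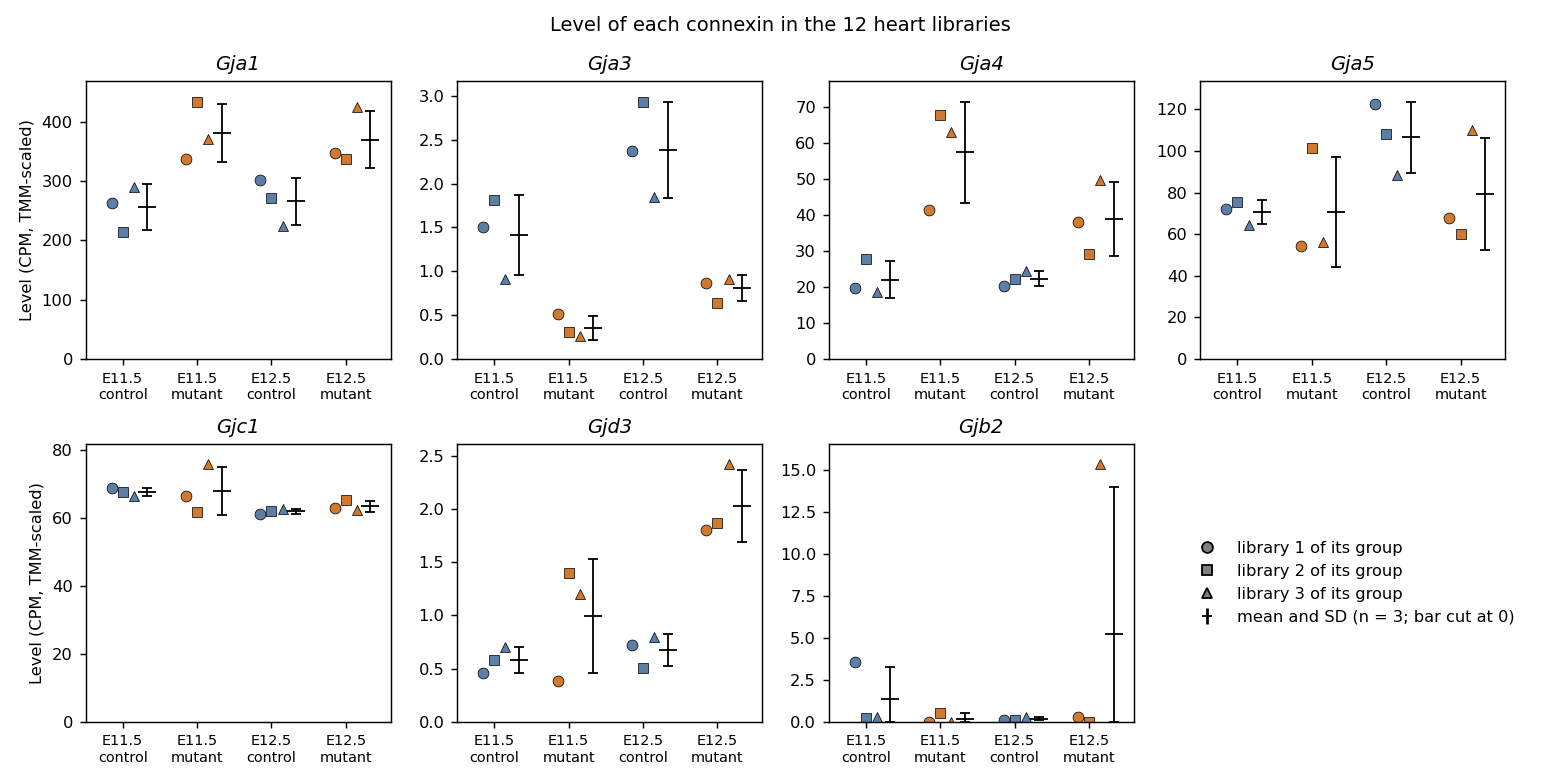
Level in CPM (linear axis from 0) of each of the 7 connexins in the 4 groups of 3 libraries; points are libraries, and the bar beside them is the mean with its SD, cut at 0. The mutant libraries (orange) of Gja1 and Gja4 lie above and those of Gja3 below all controls (blue) of their stage, and Gjb2 is carried by 2 libraries.

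Gja4, the endothelial connexin, was higher in every mutant heart than in every control heart of its stage. At E11.5 it stood at 19.7, 27.9 and 18.7 CPM in the 3 control libraries and at 41.5, 67.9 and 63.1 CPM in the 3 mutant libraries, means of 22.1 ± 5.05 and 57.5 ± 14.1 CPM (SD, n = 3). At E12.5 the controls measured 20.4, 22.2 and 24.4 CPM and the mutants 38.1, 29.2 and 49.8 CPM, means of 22.3 ± 2.01 and 39.0 ± 10.3 CPM (SD, n = 3). The controls of both stages thus lay in 1 range, and the lowest mutant of either stage was above it. The log2 fold change was 1.39 at E11.5 (SE 0.22, adjusted p = 0.0793, edgeR), a fold of 2.61 that did not pass the test, and 0.82 at E12.5 (SE 0.17, adjusted p = 0.0206, edgeR), a fold of 1.76 that did. With stage as a term it was 1.10 (SE 0.17, adjusted p = 0.00189, edgeR), and this call was made in each of 19 alternative fits, with log2 fold changes from 0.95 to 1.21. The E12.5 call was lost without control library 1 (adjusted p = 0.0972, edgeR), control library 2 (0.0642) or mutant library 1 (0.0598), and the range over all alternatives was 7.7e-05 to 0.0972. At E11.5, 4 of 13 alternatives called Gja4, among them DESeq2 (adjusted p = 7.2e-06), and the adjusted p ranged up to 0.388. The fold did not differ detectably between the stages (difference of log2 fold changes -0.57, 95% interval -1.23 to 0.10, adjusted p = 0.956, edgeR).

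Endothelial genes were set beside Gja4. In bulk RNA, fewer cells of a type and less RNA per cell cannot be told apart. The summed level of 10 pan-endothelial genes, among them Pecam1, Cdh5, Kdr and Tie1, was 1012 to 1229 CPM in controls and 1214 to 1695 CPM in mutants at E11.5, and 1299 to 1345 against 1267 to 1560 CPM at E12.5, overlapping at both stages. As a percentage of this sum, Gja4 stood at 1.94, 2.27 and 1.77 in E11.5 controls and 3.42, 4.01 and 5.04 in E11.5 mutants. At E12.5 it was 1.51, 1.67 and 1.88 in controls and 2.44, 2.31 and 3.28 in mutants. Relative to the endothelial sum, too, every mutant lay above every control of its stage, and an exact two-sided permutation test of 3 libraries against 3 cannot go below p = 0.1. Of the 10 genes, 0 were called at E11.5, and at E12.5 Cldn5, a tight junction protein of endothelium (log2 difference -1.06, SE 0.25, with adjusted p = 0.0350, edgeR), and Robo4, an endothelial guidance receptor (-0.92, SE 0.22, adjusted p = 0.0392, edgeR) were called lower. Of all genes, 1.36% were called lower at E12.5. At each stage 5 of the 10 had an unadjusted p under 0.05, where 10.2% and 21.4% of all genes had one, and 4 of the 5 at E11.5 and 3 of the 5 at E12.5 lay higher in mutants, as Gja4 did. At E11.5 they were Pecam1, Cdh5, Tie1 and Egfl7, with log2 fold changes of 0.52, 0.63, 0.48 and 0.50, and Robo4, at -0.999. Egfl7, a protein that endothelial cells secrete, had 0.57 at E12.5 (adjusted p = 0.0123, edgeR) and 0.54 with stage as a term (adjusted p = 0.00766, edgeR), and Pecam1 0.38 with stage as a term (adjusted p = 0.0264, edgeR), each under the fold of 1.5. Their part in the level of Gja4 was not tested. The median log2 fold change of the list was 0.31 at E11.5 and 0.07 at E12.5. Of 11 arterial endothelial genes, 0 were called at either stage (medians 0.12 and 0.01), where 1 of them at E11.5 and 2 at E12.5 had an unadjusted p under 0.05. Those with the lowest p at E12.5, the arterial ligand Efnb2 and the chemokine receptor Cxcr4, had log2 fold changes of 0.28 (adjusted p = 0.0799, edgeR) and 0.48 (adjusted p = 0.202, edgeR).

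**Figure D3:**
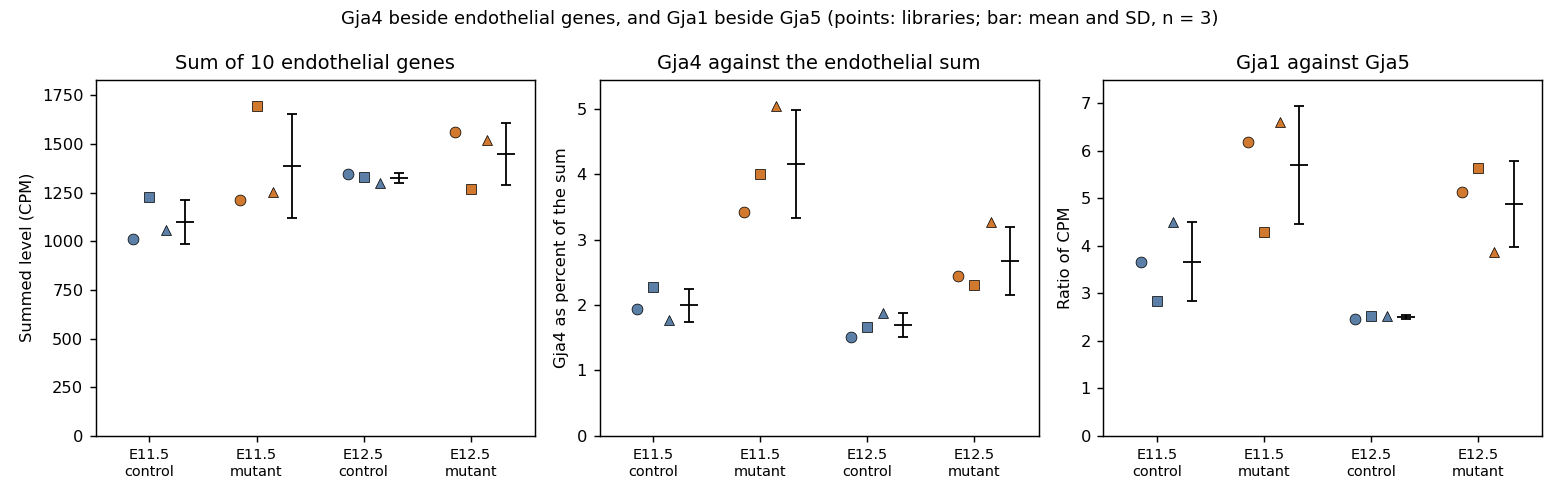
Summed CPM of 10 pan-endothelial genes (left), Gja4 as a percentage of that sum (middle) and the ratio of Gja1 to Gja5 in CPM (right) in each library, with the mean and SD of each group (n = 3) beside the points and axes from 0. The sums overlap between genotypes, the percentages do not overlap within a stage, and the 3 E12.5 controls have Gja1 to Gja5 ratios of 2.46 to 2.53.

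Gja1, the connexin of working myocardium, was higher in all mutant than in all control libraries of each stage, with a fold under the threshold. At E11.5 controls had 264, 214 and 290.0 CPM and mutants 337, 434 and 371 CPM, means of 256 ± 38.6 and 381 ± 49.0 CPM (SD, n = 3). At E12.5 controls had 302, 272 and 224 CPM and mutants 347, 337 and 425 CPM, means of 266 ± 39.3 and 370 ± 48.2 CPM (SD, n = 3). The gap between the highest control and the lowest mutant was small at both stages. The log2 fold change was 0.58 at E11.5 (SE 0.16, adjusted p = 0.211, edgeR) and 0.49 at E12.5 (SE 0.12, adjusted p = 0.0390, edgeR). With stage as a term it was 0.54 (SE 0.10, adjusted p = 0.00624, edgeR), a fold of 1.45, and so Gja1 passed the adjusted p, as 6.85% of genes did, but not the fold of 1.5. It reached that fold and was called without E12.5 control library 1 (log2 fold change 0.59, adjusted p = 0.00761, edgeR). The mutant effect did not differ detectably between the stages (-0.09, 95% interval -0.54 to 0.36).

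Markers of other cells that express Gja1 were examined. The summed level of 4 tested and 1 untested smooth muscle genes was 1581 to 2079 CPM in E12.5 controls and 2173 to 2551 CPM in E12.5 mutants, without overlap, and 2391 to 2921 against 2867 to 3408 CPM at E11.5, with overlap. Of these, 0 of 4 were called at either stage. An unadjusted p under 0.05 was found for 0 at E11.5 and 3 at E12.5, against 10.2% and 21.4% of all genes. Acta2 had a log2 fold change of 0.41 at E12.5 (adjusted p = 0.0648, edgeR). It made up most of the sum, with means of 1308 CPM in E12.5 controls and 1721 CPM in E12.5 mutants. The untested gene, Myh11, had means of 2.19 CPM in E12.5 controls and 2.21 CPM in E12.5 mutants. The 10 epicardial and mesothelial genes summed to 463 to 666 CPM in E12.5 controls and 678 to 730 CPM in E12.5 mutants. At E11.5 the sums were 715 to 1027 CPM in controls and 604 to 712 CPM in mutants, the opposite order to that of Gja1. At that stage 7 of the 10 had an unadjusted p under 0.05, against 10.2% of all genes, and 0 were called. Krt19, 1 of the 7, was higher in E11.5 mutants (log2 fold change 0.66), as was Krt8 (0.30). Only these 2 of the 10 had a log2 fold change above 0 there. At E12.5, 3 of the 10 were called higher, where 1.59% of all genes were. These were the keratins Krt8 (log2 fold change 1.48, adjusted p = 0.00132, edgeR) and Krt19 (1.06, adjusted p = 0.00132) and the mesothelial gene Msln (1.03, adjusted p = 0.0140). Wt1, Tcf21 and Upk1b had means of 44.0, 35.12 and 25.9 CPM in E12.5 controls. In E12.5 mutants they had 42.0, 34.95 and 25.3 CPM, while 8 of the 10 genes had a log2 fold change above 0. The part of the smooth muscle and epicardial genes in the level of Gja1 was not tested.

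Gja5, the atrial and conduction system connexin, overlapped between mutants and controls at both stages. At E11.5 controls had 72.1, 75.3 and 64.3 CPM and mutants 54.4, 101 and 56.1 CPM, and the fitted log2 difference was 0.01 (SE 0.23, adjusted p = 0.996, edgeR). At E12.5 controls had 122.8, 108 and 88.5 CPM and mutants 67.6, 59.9 and 110 CPM, and the fitted log2 difference was -0.41 (SE 0.20, 95% interval -0.84 to 0.02, adjusted p = 0.250, edgeR). At each stage 2 mutant libraries were under all controls and the other lay among or above them. Without E12.5 mutant library 3 the log2 fold change was -0.73 and Gja5 was called (adjusted p = 0.0175, edgeR), and over all alternatives the adjusted p ran from 0.0175 to 0.579. That library is also 1 of the 2 that held most reads of Gjb2, described below. The interval at E12.5 does not exclude a fold of 1.5 lower.

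Gja1 and Gja5 are counted over nearly the same gene length, 3105 and 3109 bases, so their CPM can be set against each other. The ratio of Gja1 to Gja5 was 2.46, 2.51 and 2.53 in the 3 E12.5 controls and 5.13, 5.63 and 3.87 in the 3 E12.5 mutants. At E11.5 it was 3.65, 2.84 and 4.51 in controls and 6.20, 4.29 and 6.62 in mutants. The genotypes did not overlap at E12.5, and at E11.5 they did. Of 8 tested genes of atrial and trabecular muscle, where Gja5 is known to be expressed, 0 were called at either stage (median log2 fold change 0.02 at E11.5 and 0.27 at E12.5), with an unadjusted p under 0.05 for 1 and 4 of them, where 10.2% and 21.4% of all genes had one. Of the 4 at E12.5, Myl4, Myl7 and Nppa were higher in mutants, with log2 fold changes of 0.28, 0.50 and 0.26 (adjusted p = 0.138, 0.177 and 0.219, edgeR). Bmp10 was lower (-0.71, adjusted p = 0.160, edgeR). At this stage 7 of the 8 had a log2 fold change above 0, the opposite sign to that of Gja5. Of 5 compact ventricular genes, 0 were called, with 0 at an unadjusted p under 0.05 at either stage.

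Gjc1, the connexin of the early heart tube and the nodes, had the narrowest spread of the 7. Its levels were 68.7, 67.5 and 66.5 CPM in E11.5 controls and 66.2, 61.6 and 75.7 CPM in E11.5 mutants. At E12.5 they were 61.1, 61.9 and 62.6 CPM in controls and 62.7, 65.1 and 62.2 CPM in mutants. Neither stage separated the genotypes. The log2 fold change was 0.01 at E11.5 (95% interval -0.27 to 0.29, adjusted p = 0.986, edgeR) and 0.05 at E12.5 (95% interval -0.11 to 0.20, adjusted p = 0.744, edgeR). Both intervals exclude a fold of 1.5 in either direction.

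Gjd3, the connexin of the atrioventricular node, was low and rested on 6 to 37 reads per library. Controls had 0.457, 0.581 and 0.702 CPM at E11.5 and 0.726, 0.508 and 0.799 CPM at E12.5. Mutants had 0.385, 1.398 and 1.21 CPM at E11.5 and 1.81, 1.87 and 2.42 CPM at E12.5. The groups overlapped at E11.5, where 1 mutant library was under all controls, and did not at E12.5. The log2 fold change was 0.77 at E11.5 (SE 0.54, adjusted p = 0.740, edgeR) and 1.59 at E12.5 (SE 0.33, adjusted p = 0.0215, edgeR), a rise of 3.02-fold. With stage as a term it was 1.23 (SE 0.31, adjusted p = 0.0299, edgeR). This call was lost in 10 of 18 alternative fits (adjusted p up to 0.126), 9 of which each left out 1 library. These were E11.5 control library 1 (adjusted p = 0.0545, edgeR), E11.5 mutant libraries 2 (0.0609) and 3 (0.0514), E12.5 control libraries 1 (0.0711), 2 (0.0778) and 3 (0.0661), and E12.5 mutant libraries 1 (0.0592), 2 (0.0576) and 3 (0.0715). At E12.5 alone, the call was lost without control library 1 (adjusted p = 0.0681, edgeR), control library 2 (0.0802), mutant library 1 (0.0545) or mutant library 3 (0.0611), while the log2 fold change stayed between 1.41 and 1.74 over all alternatives.

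Gja3, the lens connexin, was lower in every mutant than in every control of its stage, at a low level. Its reads numbered 23, 28 and 13 in E11.5 controls and 8, 5 and 3 in E11.5 mutants, and 36, 52 and 30 in E12.5 controls and 13, 11 and 14 in E12.5 mutants. The levels were 1.503, 1.81 and 0.912 CPM against 0.513, 0.304 and 0.258 CPM at E11.5, and 2.37, 2.93 and 1.84 CPM against 0.870, 0.642 and 0.916 CPM at E12.5. Mutants of E12.5 reached only the level of the lowest E11.5 control. Over the mutant libraries of both stages, the mean was under the minimum for a test. Gja3 thus entered the E11.5 fit and the fit with stage as a term through its controls. The log2 fold change was -1.92 at E11.5 (SE 0.48, adjusted p = 0.183, edgeR) and -1.55 at E12.5 (SE 0.32, adjusted p = 0.0216, edgeR), the latter a 2.92-fold fall. With stage as a term it was -1.70 (SE 0.26, adjusted p = 0.00189, edgeR), a call made in each of the 18 alternatives that tested the gene, with log2 fold changes from -1.80 to -1.61. The E12.5 call was lost without control library 1 (adjusted p = 0.0681, edgeR), control library 2 (0.0815), mutant library 1 (0.0653) or mutant library 2 (0.0726). Gja3 and the neighbouring Gjb2 did not share a pattern: the libraries highest in Gjb2 were not those highest in Gja3.

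**Figure D4:**
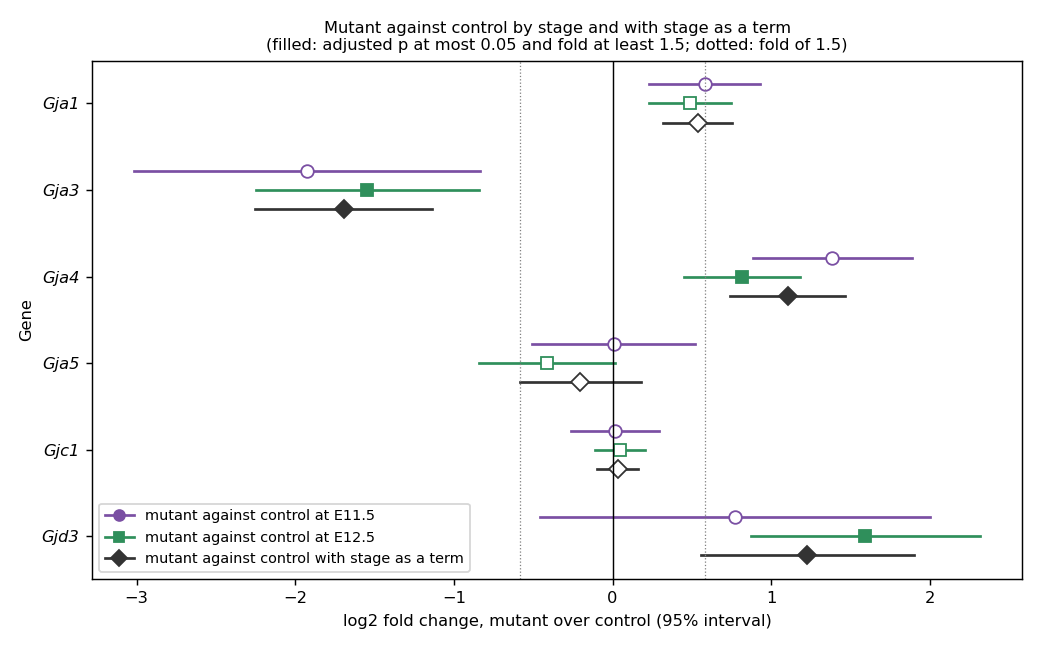
Log2 fold change of mutant over control with its 95% interval for 6 connexins, at E11.5 (circles), at E12.5 (squares) and with stage as a term (diamonds); filled symbols passed the adjusted p of 0.05 and the fold of 1.5, which the dotted lines mark. Gja4 and Gjd3 lie to the right and Gja3 to the left of 0 with filled symbols at E12.5, Gjc1 stays at 0, and Gjb2 is left out because it was not tested at E11.5.

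Gjb2, the epithelial connexin, was found almost wholly in 2 libraries of opposite genotype and different stage. E11.5 control library 1 had 54 reads and E12.5 mutant library 3 had 234, together 288 of 317 reads or 90.9%. The other 10 libraries had 9 reads at most, and E11.5 mutant libraries 1 and 3 and E12.5 mutant library 2 had 0, which allows up to 3 reads, or 0.192, 0.258 and 0.175 CPM. The levels were 3.53, 0.194 and 0.281 CPM in E11.5 controls, 0, 0.547 and 0 CPM in E11.5 mutants, 0.132, 0.113 and 0.307 CPM in E12.5 controls and 0.268, 0 and 15.3 CPM in E12.5 mutants. Gjb2 was not tested at E11.5. At E12.5 the groups overlapped, and the fitted log2 difference, 4.77 (SE 1.63, adjusted p = 0.123, edgeR), came from 1 library, without which the gene was under the minimum for a test.

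Some other epithelial genes were high in the same 2 libraries, and others were not. Gjb6, the neighbour of Gjb2 and its known partner in the inner ear, had 55 of its 59 reads there (93.2%). The epithelial cadherin Cdh1 had 78.1% of its reads in the 2 libraries and Epcam 46.8%, whereas the keratins Krt8 and Krt19 had 21.3% and 18.4% and were spread over the other libraries. Of genes chosen after their values were seen, Gabrp had 91.9%, Wnt6 76.6% and Cldn4 69.6% there. The part of epithelial cells in the Gjb2 reads was not tested. Of the list of 9 epithelial and liver genes, 5 were tested at each stage and 0 were called. At the 2 stages 0 and 3 had an unadjusted p under 0.05, against 10.2% and 21.4% of all genes. With stage as a term the liver gene Alb was called higher (log2 fold change 3.99, adjusted p = 0.0450, edgeR), with 277 of its 294 reads in E12.5 mutants coming from 1 library. Afp, another liver gene, was high in other libraries, up to 50.5 CPM in E11.5 mutant library 1, where Gjb2 had 0 reads. The endodermal factor Foxa2 was at 0.131 CPM or less in every library. Leaving out both libraries, an alternative added after the data had been seen, Gja3 and Gja4 were still called with stage as a term and Gjd3 was not (log2 fold change 1.09, adjusted p = 0.126, edgeR).

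**Figure D5:**
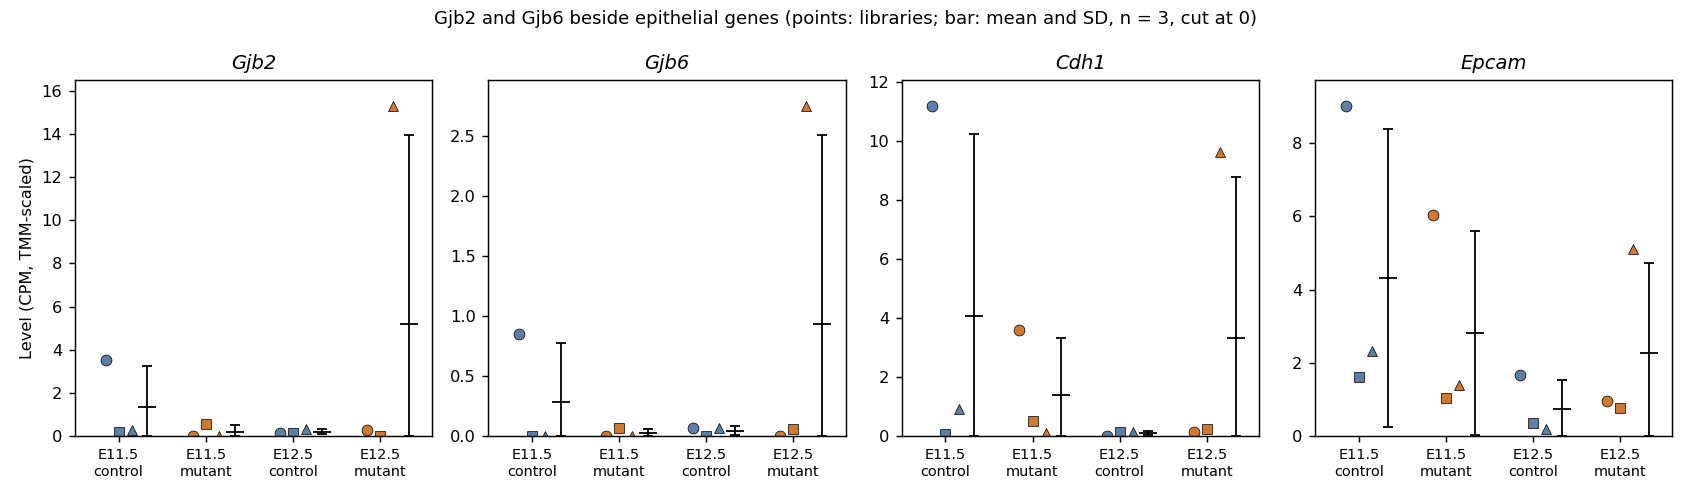
Level in CPM (linear axes from 0) of Gjb2, Gjb6, Cdh1 and Epcam in each library, with the mean and SD of each group (n = 3), cut at 0. The first E11.5 control and the third E12.5 mutant stand out in Gjb2, Gjb6 and Cdh1, and for Epcam the first E11.5 mutant, at 6.03 CPM, lies above the latter.

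Because sex differed with genotype at E11.5, values were compared within sex. The only male E11.5 mutant, library 3, had 63.1 CPM of Gja4, 371 of Gja1, 1.21 of Gjd3 and 0.258 of Gja3. The 3 male E11.5 controls had 18.7 to 27.9, 214 to 290.0, 0.457 to 0.702 and 0.912 to 1.81 CPM of these genes, so the male mutant lay outside the male controls in all 4. The same library also lay outside them for Gja5, at 56.1 against 64.3 to 75.3 CPM, and Gjc1, at 75.7 against 66.5 to 68.7 CPM. Gjb2, with 0 reads, was under their 0.194 to 3.53 CPM. Lying outside thus did not set the 4 genes apart, and 1 library against 3 cannot decide whether the differences hold within sex. At E12.5 the female libraries were control 1 and 2 and mutant 2 and 3, with 20.4 and 22.2 against 29.2 and 49.8 CPM of Gja4, and 2.37 and 2.93 against 0.642 and 0.916 CPM of Gja3. For Gja4 the male E12.5 control and mutant had 24.4 and 38.1 CPM. With sex as a term, Gja4 had a log2 fold change of 1.53 at E11.5 (adjusted p = 0.0531, edgeR), and Gja3, Gja4 and Gjd3 were called at E12.5 and with stage as a term.

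Stage was compared within each genotype. In controls, 1 of 6 connexins tested was called from E11.5 to E12.5, where 647 of 12252 genes were called (5.28%). This was Gja5, which rose from 64.3 to 75.3 CPM at E11.5 to 88.5 to 122.8 CPM a day later, by 0.59 on the log2 scale (SE 0.12, adjusted p = 0.0253, edgeR). The call was lost with sex as a term (log2 fold change 0.34, adjusted p = 0.530, edgeR), the male E12.5 control being the lowest of its group at 88.5 CPM. It was also lost without E11.5 control library 1 or 3 or E12.5 control library 1 or 2, with log2 fold changes from 0.48 to 0.71 over the fits that each left out 1 library. Control libraries of the stages also did not overlap for Gja3, which was higher at E12.5 (log2 fold change 0.75, adjusted p = 0.154, edgeR), and Gjc1, which was lower (-0.13, adjusted p = 0.337, edgeR), as for 37.4% of all genes. In mutants, 0 of 6 connexins were called from E11.5 to E12.5 by edgeR or by DESeq2, where 68 of 12238 genes were called (0.556%). Of the 6, 3 had an unadjusted p under 0.05, Gja4, Gjd3 and Gjb2, as did 9.27% of genes. Gjb2 reached the minimum for a test only through E12.5 mutant library 3, so this count rests in part on a gene let in by its high library. Gja3 was under the minimum. Mutant libraries of the stages did not overlap for 17.4% of genes and for Gjd3 (log2 fold change 1.03, adjusted p = 0.524, edgeR), and they did for Gja4 (-0.56, adjusted p = 0.508), Gja5 (0.16, adjusted p = 0.871), Gja1 and Gjc1. These comparisons share libraries with those of the genotypes. The difference between the stages in the mutant effect was called for 0 of the 7 genes by edgeR and by DESeq2 and for 0 of 12270 genes by edgeR (0.00%), 551 of which (4.49%) had an unadjusted p under 0.05. Among the connexins this was the case for Gjb2 alone (difference 7.45, adjusted p = 0.908, edgeR).

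The proteins that hold or flank gap junctions at the intercalated disc were read from a list of 17 genes. At E11.5, 0 were called, and 2 had an unadjusted p under 0.05, against 10.2% of all genes. At E12.5 1 was called, Dsc2, a desmosomal cadherin, which fell by 0.80 on the log2 scale (SE 0.11, adjusted p = 0.00466, edgeR). An unadjusted p under 0.05 was found for 5 of the 17 at E12.5, where 21.4% of all genes had one. These were Dsc2, Cdh2, Ctnna3, Dsg2 and Cxadr, all lower in mutants, while 7 of the 17 had a log2 fold change above 0. Ctnna3, an alpha catenin of heart muscle, was lower without overlap at both stages (log2 fold change -0.49 with stage as a term, adjusted p = 0.0130, edgeR), under the fold of 1.5, as was Cxadr (-0.24, adjusted p = 0.0512). The scaffold of Gja1, Tjp1, differed between the genotypes by 0.13 (log2) in the E11.5 and 0.01 in the E12.5 hearts. The median of the list was -0.02 at E11.5 and -0.08 at E12.5. Of 17 transcription factors known to act on connexin genes in the heart, 0 of 16 tested were called at E11.5. Of these, 5 had an unadjusted p under 0.05, against 10.2% of all genes. At E12.5, 1 of 17 was called, Irx3, a factor of the ventricular conduction system, which fell by 0.75 (SE 0.14, adjusted p = 0.0143, edgeR). Irx5 had the next lowest p at E12.5 and lay the other way, with a log2 fold change of 0.46 (adjusted p = 0.0349, edgeR) that was under the fold of 1.5 and no overlap of the libraries. In Hopx and Tbx3 it was -0.33 (adjusted p = 0.0567, edgeR) and -0.55 (adjusted p = 0.0881, edgeR). At E12.5, 5 of the 17 had an unadjusted p under 0.05, against 21.4% of all genes. The medians of this list were -0.20 and -0.17. The pannexins, channel proteins unrelated to connexins in sequence, were tested for Panx1 and Panx2, with 0 called and 0 at an unadjusted p under 0.05 at either stage, and log2 fold changes of 0.14 and 0.26 at E12.5.

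Blood and immune markers were also read. Of 6 erythroid genes, 4 were called lower at E12.5, against 1.36% of all genes, with summed levels of 3536 to 5808 CPM in controls and 1904 to 2381 CPM in mutants. At E11.5, 0 were called and 1 had an unadjusted p under 0.05, against 10.2% of all genes. The sums there were 4157 to 5148 against 4148 to 5338 CPM. Of 4 macrophage genes, 3 were called lower at E12.5, against 1.36% of all genes. Their sums were 71.8 to 93.5 CPM in controls against 33.6 to 50.8 CPM in mutants, with a median log2 fold change of -0.79. At E11.5 none was called, but all 4 were lower in mutants without overlap and with an unadjusted p under 0.05. Of all genes, 16.4% did not overlap in either direction and 10.2% had such a p. The E11.5 sums were 24.4 to 67.5 against 9.90 to 13.9 CPM, and the median was -1.93. With stage as a term 3 were called lower, where 3.22% of all genes were called in either direction. Of the neural crest and Schwann genes, 1 was tested and was not called at either stage. Their part in the connexin levels was not tested.

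The genes most like each connexin across the 12 libraries were read from 8748 genes with a mean of at least 5 RPKM, by Pearson's r of log2(CPM + 1). For Gja4 these were Rasgrp2 (r = 0.97), Ppm1g (0.97) and Sost (0.94). For Gja1 they were Mycbpap (0.94), Got1 (0.90) and Rragd (0.90), for Gja5 Gaa (0.96), Pam (0.96) and Tgm2 (0.93), and for Gjc1 Mtch1 (0.96), Cox4i2 (0.95) and Ndn (0.94). The libraries fall into 4 groups of genotype and stage, so that genes with the same order of groups correlate, and these values are a description.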

How the data were processed

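RNA-seq of 12 hearts in 4 groups was analysed, grouped by the labels. The submitters' processing notes name Bowtie2, DESeq and mm10. The counting program and the use of strand are not given in the sources used here. The authors deposited 1 table of values called RPKM, which hold a signal: each equals a whole count multiplied by a gene length and a library factor. They also deposited average counts per group, a kind of expected count, since means need not be whole. From both, counts were recovered for 17827 genes, within 1.6e-05 of a whole number, and 1597 genes had no reads. The authors' comparison files also hold fold changes and p-values, which were not used. The design had assumed counts, and the recovered counts were used.

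Counts were tested with edgeR 4.0.16 (quasi-likelihood, TMM, mean RPKM of at least 0.5, Benjamini-Hochberg over all genes tested) in R 4.3.3, and with DESeq2 1.42.0 as an alternative. The code was tested on simulated data. Standard errors were derived from edgeR's F statistic. Intervals of the fold changes came from the same fits and include the spread between libraries. Limits from a count of 0 cover counting error only, and library totals of 11994148 to 17483982 reads set the precision. Sex was read from 4 Y-linked genes. The connexins and the lists were chosen with earlier results of these data known. Genes were named by rule: the members, the called genes of each list (at most 4) or else those with the lowest p at E12.5, and the 3 genes most alike each member, other genes being context. Alternatives were median-ratio scaling, 2 other filters, DESeq2, no fold threshold, 1 fit over all 12 libraries, sex or the replicate number as a term, and each library left out. Promoters came from RefSeq and gene positions from GENCODE vM21. Protein sequences were not used here, and a few genes are not reported here.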

Additional observations from a re-analysis of the deposited data

How the results depend on the processing

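At E11.5 the count of connexins called, 0, became 1 (Gja4) without a filter on low counts and with DESeq2, and 2 (Gja3 and Gja4) with all 12 libraries in one fit, and was 0 to 0 when 1 library was left out. At E12.5 the count of 3 became 1 with a mean RPKM of at least 5, at which Gja3 and Gjd3 were not tested, and 0 with all 12 libraries in one fit (adjusted p of 0.0510 to 0.0943 for the 3 genes, edgeR). It ran from 0 to 3 when 1 library was left out, being 0 without control 1, control 2 or mutant 1, while without mutant 2 the 3 genes were Gja4, Gjb2 and Gjd3 and without mutant 3 they were Gja3, Gja4 and Gja5. With stage as a term the count of 3 became 1 with a mean RPKM of at least 5 and ran from 2 to 3 when 1 library was left out. It was 2 without both libraries that held most reads of Gjb2. The stage count in controls, 1, became 0 with all 12 libraries in one fit and with sex as a term, and ran from 0 to 1 when 1 library was left out. The stage count in mutants and the difference between stages stayed at 0 in all 13 and 19 alternatives. The causes of these changes were not tested.

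With the replicate number as a block, Gja4 was called at E11.5, a count of 1, and 4 genes were called at E12.5, Gjb2 added (4.45, adjusted p = 0.00946, edgeR). The numbers carry no stated pairing, and same-numbered libraries correlated in their deviations from the group means at -0.15 to 0.44, so they were not taken as pairs. The block changed no other count of calls.

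Only uncalled values changed sign. With the block or with sex as a term, Gja5 at E11.5 was -0.048 or -0.31 in place of 0.01. With sex as a term, the difference between stages was 0.030 for Gja1 and -0.023 for Gjc1, and the stage effect in controls was -0.18 for Gja1. When 1 library was left out, values crossed 0 for Gja5 at E11.5 (-0.34 to 0.16), Gjc1 at E11.5 (-0.077 to 0.087) and with stage as a term (-0.0080 to 0.066), the difference between stages of Gja1 (-0.21 to 0.017) and Gjc1 (-0.037 to 0.13), stage in controls of Gja1 (-0.073 to 0.16) and Gja4 (-0.086 to 0.20), and stage in mutants of Gja1 (-0.15 to 0.050) and Gja5 (-0.14 to 0.51). Depth limits Gja3, Gjd3 and Gjb2, with 3 to 52, 6 to 37 and 0 to 234 reads per library.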
